A study of Mus musculus with 40 samples.

Results

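The meiotic cohesins and shugoshins described here are 10 genes taken by name from the 55492 genes of a single-cell count table: Smc1b, Smc3, Rec8, Rad21l, Rad21, Stag3, Wapl, Sgo1, Sgo2a and Espl1. The rule uses their names and no measured value. Of the 10 members, 9 had at least 1 count and reached the minimum of 20 summed counts, and Rad21l had 0 counts in all 40 cells.

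Cohesin is a ring of 2 SMC proteins closed by a kleisin, with a STAG protein bound to the kleisin, and it holds sister chromatids together. In germ cells the ring is rebuilt with meiotic subunits, namely SMC1B, the kleisins REC8 and RAD21L, and STAG3. Wapl opens the ring without cutting it, separase (encoded by Espl1) cuts the kleisin, and shugoshin recruits the phosphatase PP2A to centromeres so that REC8 there survives the first meiotic division.

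Transcripts were counted in 40 single cells from the testes of C57BL/6J mice aged 6 to 8 weeks, with 20 cells labelled Metaphase I and 20 labelled Pachytene. Spermatocytes were enriched by centrifugal elutriation, which separates cells by size, and cells were driven to metaphase I in culture with 4 µM okadaic acid, an inhibitor of the phosphatases PP1 and PP2A, for 5 h. All 40 libraries carry the same protocol text, and none of the sources used here says whether the Pachytene cells were cultured, so stage, drug and culture time cannot be told apart. No animal, donor or culture is named in the labels, so each group counts as 1 sample, the groups are described without a test, and every interval covers counting error only, at 95%.

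Total counts per cell ran from 198117 to 1497037 in Metaphase I (median 540662) and from 165048 to 2325564 in Pachytene (median 730979). The spermatocyte markers, led by the testis lactate dehydrogenase gene Ldhc, summed to between 8011 and 23526 counts per 1000000 (CPM) in Metaphase I cells and between 14052 and 24715 CPM in Pachytene cells. All 7 spermatocyte markers had counts in all 40 cells. Among the 5 markers of earlier prophase, Stra8 was at 0 in every cell. Prdm9 had 5 counts in 3 Metaphase I cells and 6 counts in 2 Pachytene cells. Dmc1 had 4 counts in 1 Metaphase I cell and 0 in Pachytene. Meiob was detected in 12 Metaphase I and 10 Pachytene cells. Only Spo11 was detected in all 40 cells (median 133 CPM in Metaphase I and 124 CPM in Pachytene). The X chromosome is silenced in pachytene spermatocytes, and in 8 libraries X-linked genes held over 0.3% of counts. These were Metaphase I replicates 3, 7, 17 and 19 and Pachytene replicates 2, 3, 7 and 19, and they held 17.3% of Metaphase I counts and 22.5% of Pachytene counts. Of these, 7 were rich in spermatid markers, with a summed 5694, 2054 and 1435 CPM in Metaphase I replicates 3, 7 and 17 and 6039 to 6933 CPM in the 4 Pachytene libraries. All 11 spermatid markers were detected in both groups, and their summed level had a median of 57.0 CPM in Metaphase I (range 7.35 to 5694) and 105 CPM in Pachytene (range 0 to 6933). Metaphase I replicate 19 instead held 13336 CPM of 10 Sertoli cell markers, of which Clu alone was 10454.5 CPM. Their sum was no more than 211 CPM in any other Metaphase I cell and 11.2 CPM in any Pachytene cell. Replicate 19 also had the highest sums of spermatogonia markers (412 CPM, mostly Uchl1) and Leydig markers (162 CPM, all Star). The same was so for peritubular, endothelial and blood markers (62.5 CPM). Its spermatocyte markers summed to 9520 CPM. Of the 10 Sertoli markers, 4 were at 0 in all Metaphase I cells and 6 in all Pachytene cells. These 8 libraries go against their labels in this respect. For each member with counts in them, the ratio is given with and without them. Other values include them unless stated.

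No member was over 2-fold higher or lower in Metaphase I than in Pachytene. Among the 16174 genes with at least 20 summed counts, 8.49% were over 2-fold higher and 9.81% over 2-fold lower, so a count of 0 of 9 is near what the whole table shows. The ratio is taken between the summed CPM of the groups, with 1 CPM added to each, and is given as log2 of Metaphase I over Pachytene, while a fold given with an interval is the plain ratio of the summed CPM. The median log2 ratio was 0.17 over the 9 members and -0.0010 over all measured genes. The members ran from -0.68 for Rec8 to 0.88 for Rad21, and both of these ends rest on a few libraries. Without the 8 libraries, 8 members were still measured, 0 were over 2-fold higher or lower, and the member median was 0.11 (0.05 with the same 9 members kept). Over all genes, 6.32% were then over 2-fold higher and 4.13% lower.

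**Figure D1:**
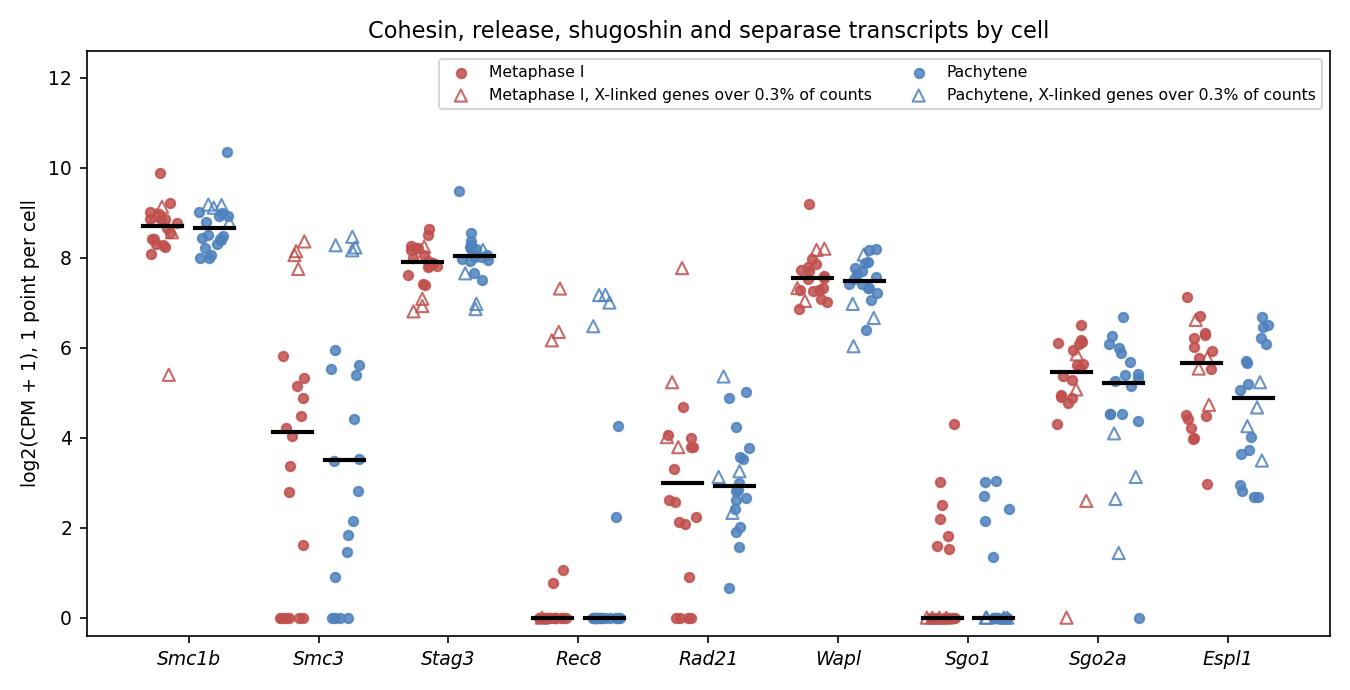
Level of the 9 members with counts in each cell, as log2(CPM + 1), with Metaphase I cells left of Pachytene cells, black bars at the medians, and triangles for the 8 libraries with over 0.3% X-linked counts. Smc1b, Stag3 and Wapl lie above 41 CPM in every cell, while Rec8 is at 0 in 15 of 20 Metaphase I and 14 of 20 Pachytene cells and its high values are nearly all triangles.

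The members spanned a wide range of levels within a cell. The libraries keep the 3' end of each transcript, so a correction for length is only approximate, but levels of different genes are set side by side here as CPM per kilobase of exon. Smc1b was the highest, with a median of 104 CPM per kilobase in Metaphase I and 99.3 in Pachytene. Stag3 came next with medians of 41.6 CPM per kilobase in Metaphase I and 45.4 in Pachytene, and Wapl followed with 27.9 in Metaphase I and 26.7 in Pachytene. In Metaphase I the next medians were 6.12 CPM per kilobase for Sgo2a, 5.64 for Espl1, 2.99 for Smc3 and 1.65 for Rad21. In Pachytene they were 5.15 for Sgo2a, 3.24 for Espl1, 1.87 for Smc3 and 1.55 for Rad21. Rec8, Rad21l and Sgo1 had medians of 0 in both groups. The order of the medians was the same in both groups. With the 8 libraries left out, Smc3 stood above Rad21 in Metaphase I (1.38 against 1.02 CPM per kilobase) and below it in Pachytene (0.859 against 1.45). The interquartile range of Smc1b lay above that of Stag3, and that of Wapl above that of Sgo2a, in both groups. Stag3 and Wapl overlapped in Metaphase I, where the lower quartile of Stag3 was 32.8 and the upper quartile of Wapl 33.8, but not in Pachytene, where these were 40.6 and 33.4. Sgo2a, Espl1, Smc3 and Rad21 each overlapped their neighbour in the order in both groups.

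Promoter sequences are shown for 4 members whose levels across cells ran together or against each other: Rec8 and Smc3, which were both high in 7 of the 8 libraries, and Smc1b and Espl1, whose ranks ran in opposite directions. Each window holds 250 bases before and 50 after a RefSeq start on GRCm38.p6, 5′ to 3′ on the gene's strand. Capitals mark matches to a CHR element (TTTGAA or TTCGAA, a site known from cell cycle genes) or to a MYB core (CAACNG or TAACNG), each searched on both strands, and no match in these 4 windows overlaps another. The windows lie at chr14:55617916-55618215 (plus strand) for Rec8, chr19:53600146-53600445 (plus) for Smc3, chr15:85131908-85132207 (minus) for Smc1b and chr15:102296043-102296342 (plus) for Espl1.
Rec8: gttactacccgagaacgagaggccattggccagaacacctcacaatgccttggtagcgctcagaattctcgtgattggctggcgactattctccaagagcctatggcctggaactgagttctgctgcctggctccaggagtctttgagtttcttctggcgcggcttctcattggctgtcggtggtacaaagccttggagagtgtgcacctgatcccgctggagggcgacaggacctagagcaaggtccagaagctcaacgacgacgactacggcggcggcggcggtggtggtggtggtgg
Smc3: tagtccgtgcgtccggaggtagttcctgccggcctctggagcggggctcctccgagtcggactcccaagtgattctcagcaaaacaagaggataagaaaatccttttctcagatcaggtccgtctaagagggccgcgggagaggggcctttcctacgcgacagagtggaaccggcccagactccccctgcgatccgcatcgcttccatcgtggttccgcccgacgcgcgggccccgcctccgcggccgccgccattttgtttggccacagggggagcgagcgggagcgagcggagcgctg
Smc1b: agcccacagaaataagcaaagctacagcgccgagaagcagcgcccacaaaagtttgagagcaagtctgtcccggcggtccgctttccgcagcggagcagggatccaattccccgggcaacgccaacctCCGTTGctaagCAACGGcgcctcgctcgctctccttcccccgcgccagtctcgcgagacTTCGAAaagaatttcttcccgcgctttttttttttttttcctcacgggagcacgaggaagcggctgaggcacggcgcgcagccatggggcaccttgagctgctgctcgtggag
Espl1: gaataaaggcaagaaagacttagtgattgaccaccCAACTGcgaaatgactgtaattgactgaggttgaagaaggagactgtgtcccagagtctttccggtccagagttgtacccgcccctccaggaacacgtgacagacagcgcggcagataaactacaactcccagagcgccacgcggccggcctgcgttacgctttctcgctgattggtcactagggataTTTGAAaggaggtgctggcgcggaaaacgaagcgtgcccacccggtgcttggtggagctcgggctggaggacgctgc

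The Rec8 and Smc3 windows held no match to any motif searched. The Smc1b window held TTCGAA with its first base 63 bases before the start, and the MYB core forms CCGTTG and CAACGG at 122 and 111 bases before it. The Espl1 window held TTTGAA 27 bases before the start and CAACTG 215 bases before it. RefSeq windows were found for 9 of the 10 members, 10 windows in all because Sgo2a has 2. A CHR element was in 4 of the 10 windows (Smc1b, Espl1, Sgo1 and Rad21l) and in 19.2% of 32851 windows of the same length genome-wide. A MYB core was in 7 of the 10 and in 49.7% of all windows. The motif CNCCTCAG, known for STRA8, the inducer of meiotic entry, was in 0 of the 10 and in 7.94% of all windows. The E2F sites TTTCCCGC and TTTGGCGC were in 0 of the 10 and 1.56% of all. A match is a stretch of letters, and absence from these windows says nothing of the factor elsewhere.

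Smc1b, the meiosis-specific SMC1 subunit (GRCm38 chromosome 15, 85064689 to 85131964, minus strand), was the most abundant member and was detected in all 40 cells. It ran from 41.2 to 941 CPM in Metaphase I (median 419) and from 253 to 1303 CPM in Pachytene (median 402). The groups overlapped over nearly their whole range. The lowest cell was Metaphase I replicate 19, the library with Sertoli markers, and the highest was Pachytene replicate 5. Pachytene replicate 5 had the lowest total of the 40 cells, 165048 counts, and 1369 CPM of spermatid markers. It is not among the 8 libraries. The sums of 6248 counts in Metaphase I and 7281 in Pachytene gave a 1.11-fold higher level in Metaphase I (1.07 to 1.14). Metaphase I replicate 13 held 22.5% of the Metaphase I counts at 941 CPM, and without it the log2 ratio was -0.06 in place of 0.14. Without the 8 libraries the log2 ratio was 0.37, a 1.29-fold higher level (1.25 to 1.35). Replicate 13 was still among those cells and held 25.7% of their Metaphase I counts of Smc1b.

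SMC1B pairs with SMC3, and transcripts of its somatic counterpart SMC1A were nearly absent outside 1 library. Smc1b made up 98.7% of the SMC1 counts in Metaphase I (exact binomial interval 98.4% to 98.9%) and 99.97% in Pachytene (99.9% to 100%). All 84 Metaphase I counts of the X-linked Smc1a came from replicate 19, where Smc1b was 25.7% of the pair. The other 19 Metaphase I cells had 0 Smc1a counts, and Pachytene had 2.

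Smc3, the SMC partner used by both mitotic and meiotic rings (chromosome 19, 53600398 to 53645833, plus strand), was high in the same 8 libraries of both groups. It ran from 0 to 328 CPM in Metaphase I (median 16.6) and from 0 to 352 CPM in Pachytene (median 10.3). In the 8 libraries it was 214 to 328 CPM in Metaphase I and 286 to 352 CPM in Pachytene, and in the other 32 it reached at most 55.4 CPM in Metaphase I and 60.8 CPM in Pachytene. No library of the 8 overlapped any of the 32. The 8 libraries held 75.7% of the Metaphase I counts of Smc3 and 87.2% of the Pachytene counts. The sums of 803 counts in Metaphase I and 1393 in Pachytene gave a 1.35-fold lower level in Metaphase I (1.23 to 1.47), while without the 8 libraries 195 counts in Metaphase I and 178 in Pachytene gave a 1.32-fold higher level (1.07 to 1.63). Leaving out Pachytene replicate 7 alone moved the log2 ratio to 0.36 from -0.42, and leaving out Metaphase I replicate 19 moved it to -0.75. The part of spermatid or Sertoli RNA in the Smc3 level was not tested.

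Rec8, the kleisin that separase cuts in meiosis (chromosome 14, 55618037 to 55625395, plus strand), was detected in 5 Metaphase I and 6 Pachytene cells. Metaphase I replicate 3 had 158 CPM, replicate 17 had 80.6, replicate 7 had 70.7, replicate 2 had 1.08 and replicate 20 had 0.719, and the other 15 Metaphase I cells had 0. Pachytene replicate 19 had 144 CPM, replicate 3 had 143, replicate 2 had 127, replicate 7 had 88.2, replicate 5 had 18.2 and replicate 20 had 3.71, and the other 14 Pachytene cells had 0. The 7 highest cells were the 7 libraries of the 8 that were rich in spermatid markers, and the next, Pachytene replicate 5, had 1369 CPM of spermatid markers and 0.121% X-linked counts. Metaphase I replicate 19, the library with Sertoli markers, had 0 Rec8 counts. Of the 32 libraries outside the 8, 28 were at 0. After each cell was thinned to 160000 counts, Rec8 was detected in 4 Metaphase I and 5 Pachytene cells.

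In the sums Rec8 had 207 counts in Metaphase I and 439 in Pachytene, a 1.65-fold lower level in Metaphase I (1.39 to 1.95). Of these counts 99% in Metaphase I and 98.6% in Pachytene lay in the 8 libraries, and without them 2 counts in Metaphase I and 6 in Pachytene remained, a 2.48-fold lower level whose interval ran from 0.444 to 25.2. Leaving out Metaphase I replicate 3 moved the log2 ratio from -0.68 to -2.18, and leaving out Pachytene replicate 7 moved it to -0.01. The deposited Rec8 gene model ends at the RefSeq end, and the 3' end of the importin gene Ipo4, on the opposite strand, lies 5 bases beyond it. Ipo4 had a median of 128 CPM in Metaphase I and 125 CPM in Pachytene and was detected in every cell. Counts where the 2 genes meet were not analysed here.

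**Figure D2:**
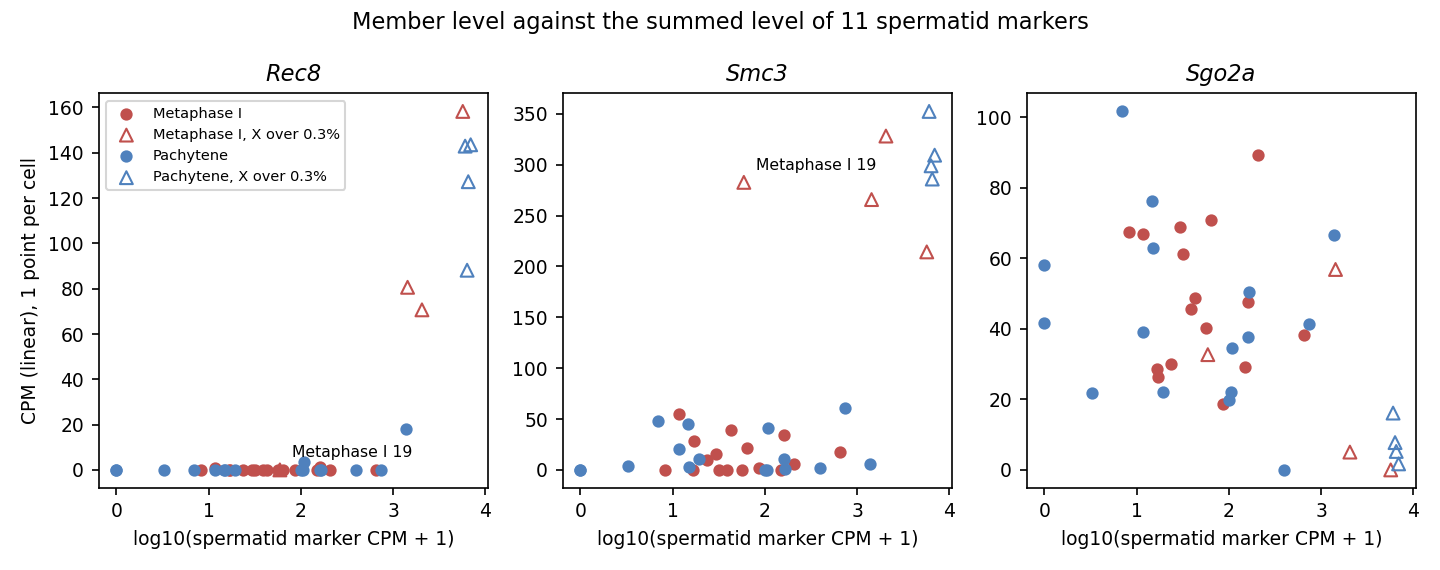
Level of Rec8, Smc3 and Sgo2a in each of the 40 cells against the summed level of 11 spermatid markers, with the member's CPM on a linear axis and the markers as log10(CPM + 1), Metaphase I in red, Pachytene in blue and triangles for the 8 libraries over 0.3% X-linked counts. The 4 Pachytene triangles sit together at 6039 CPM or more of spermatid markers with high Rec8 and Smc3 and low Sgo2a, and Metaphase I replicate 19 is the triangle at 58.2 CPM of spermatid markers with 0 Rec8.

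Rad21l, the second meiotic kleisin, known from early prophase (chromosome 2, 151645404 to 151668533, minus strand), was listed at 0 in every cell. With a fixed limit of 3 counts for a count of 0, the level over all 40 cells was at most 0.0956 CPM. The RefSeq model extends 1038 bases past the deposited 3' end of this gene, and for the other 9 members the RefSeq end lay between -364 and 378 bases past it. Whether transcripts that end past the deposited model bear on this 0 was not tested.

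Rad21, the kleisin of the mitotic ring (chromosome 15, 51962240 to 51991747, minus strand), ran from 0 to 217 CPM in Metaphase I (median 6.98) and from 0.569 to 40.1 CPM in Pachytene (median 6.56). The groups overlapped except for Metaphase I replicate 19, which at 217 CPM stood above the next highest cell, Pachytene replicate 2 at 40.1 CPM. Rad21 was detected in 16 Metaphase I and 20 Pachytene cells, and in 14 of each after thinning. The sums of 269 counts in Metaphase I and 180 in Pachytene gave a 1.93-fold higher level (1.59 to 2.34). Replicate 19 held 153 of the 269 Metaphase I counts, and without it the log2 ratio was -0.17 in place of 0.88. Without the 8 libraries Rad21 was 1.52-fold lower in Metaphase I (1.13 to 2.05), with 72 counts in Metaphase I and 132 in Pachytene.

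Among the kleisins Rec8 held 43.5% of the counts in Metaphase I (39.0% to 48.1%) and 70.9% in Pachytene (67.2% to 74.5%). These shares do not describe a typical cell, since the median share per cell was 0 in both groups. Without the 8 libraries the share was 2.70% in Metaphase I (0.329% to 9.42%) and 4.35% in Pachytene (1.61% to 9.22%).

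**Figure D3:**
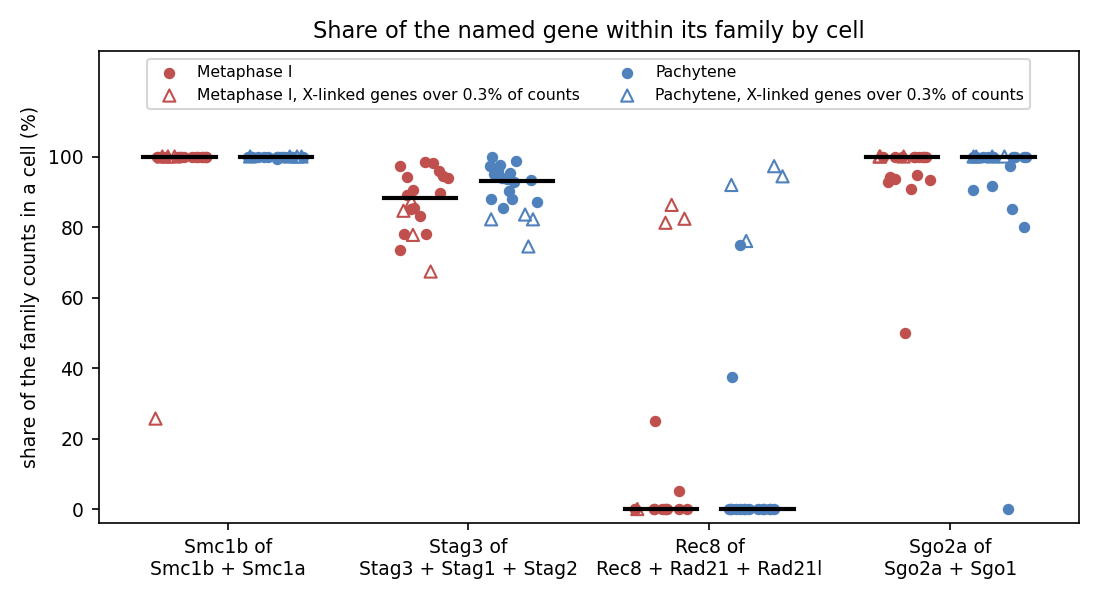
Share of counts that the named gene took within its family in each cell, in percent, for Smc1b of the SMC1 genes, Stag3 of the STAG genes, Rec8 of the kleisins and Sgo2a of the shugoshins, with Metaphase I cells left of Pachytene cells and black bars at the medians. Smc1b is at 100% in most cells and at 25.7% in Metaphase I replicate 19, and Rec8 has medians of 0 in both groups.

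Stag3, the meiotic STAG subunit (chromosome 5, 138280240 to 138312393, plus strand), had the ratio closest to 1 of the 9 measured members over all 40 cells. It ran from 111 to 399 CPM in Metaphase I (median 238) and from 115 to 715 CPM in Pachytene (median 260), and it was detected in all 40 cells. The ranges overlapped, with the top cell again Pachytene replicate 5, the library with the lowest total, which is not among the 8. The sums of 3328 counts in Metaphase I and 4416 in Pachytene gave a ratio of 0.971 (0.928 to 1.02), an interval that holds 1. With the 8 libraries left out the ratio was 0.966 (0.920 to 1.01). The coefficient of variation over cells was 32% in Metaphase I and 44.1% in Pachytene, where counting alone would give 9.03% in Metaphase I and 7.61% in Pachytene.

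Stag3 made up 86.5% of STAG counts in Metaphase I (85.4% to 87.6%) and 91.0% in Pachytene (90.1% to 91.8%). The share of a cell ran from 67.4% to 98.3% in Metaphase I and from 74.5% to 100% in Pachytene, so the groups overlapped. Leaving out the 8 libraries gave shares of 87.6% in Metaphase I and 93.2% in Pachytene. Stag1, a mitotic STAG gene, had 450 counts in Metaphase I and 356 in Pachytene, 1.63-fold higher in Metaphase I (1.41 to 1.88) and 1.87-fold higher without the 8 libraries. Metaphase I replicates 13, 14 and 15, all outside the 8, held 71, 82 and 82 of the 450 counts. Over all cells the median Stag1 level was 19.9 CPM in Metaphase I and 15.8 CPM in Pachytene. The X-linked Stag2 had 70 counts in Metaphase I and 82 in Pachytene. Of these, 97.1% in Metaphase I and 97.6% in Pachytene lay in the 8 libraries.

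Wapl, the ring-opening factor (chromosome 14, 34673928 to 34747983, plus strand), was detected in all 40 cells. It ran from 115 to 586 CPM in Metaphase I (median 185) and from 64.5 to 293 CPM in Pachytene (median 177). Metaphase I replicate 18, the cell with the lowest summed spermatocyte markers at 8011 CPM, held the highest value, and the other cells of the groups overlapped. The sums of 2658 counts in Metaphase I and 3039 in Pachytene gave a 1.13-fold higher level in Metaphase I (1.07 to 1.19). Leaving out the 8 libraries gave a ratio of 1.04 (0.979 to 1.10).

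Sgo2a, the shugoshin that protects centromeric REC8 in mouse germ cells (chromosome 1, 57995971 to 58025899, plus strand), ran from 0 to 89.2 CPM in Metaphase I (median 42.9) and from 0 to 102 CPM in Pachytene (median 36.1). The ranges overlapped. In the libraries rich in spermatid markers it was 0 CPM in Metaphase I replicate 3, 5.05 in replicate 7 and 56.8 in replicate 17, and 5.23, 16.1, 7.74 and 1.71 CPM in Pachytene replicates 2, 3, 7 and 19. Of the other 32 libraries, 1 was at 0, Pachytene replicate 4. The sums of 606 counts in Metaphase I and 617 in Pachytene gave a 1.27-fold higher level in Metaphase I (1.13 to 1.42), and with the 8 libraries left out it was 1.13-fold higher (1.01 to 1.28). Sgo2a shares 2455 exon bases with Kctd18 on the opposite strand, and no source used here states whether counting used the strand, so counts of the 2 genes cannot be told apart there.

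Sgo1, the shugoshin of mitotic centromeres (chromosome 17, 53674786 to 53689333, minus strand), was detected in 7 Metaphase I and 6 Pachytene cells, none of them among the 8 libraries. Its highest values were 18.7 CPM in Metaphase I and 7.24 CPM in Pachytene, and the medians were 0. The sums of 34 counts in Metaphase I and 25 in Pachytene gave a 1.75-fold higher level in Metaphase I (1.02 to 3.06). Metaphase I replicate 1 held 18 of the 34 counts, and without it the log2 ratio was -0.10 in place of 0.53. Sgo2a made up 94.7% of the shugoshin counts in Metaphase I (92.7% to 96.3%) and 96.1% in Pachytene (94.3% to 97.5%).

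Espl1, which encodes separase (chromosome 15, 102296266 to 102324357, plus strand), was detected in all 40 cells and had the widest ratio between the group medians of the 4 members detected in every cell. It ran from 6.86 to 139 CPM in Metaphase I (median 49.3) and from 5.38 to 101 CPM in Pachytene (median 28.3). The ranges overlapped almost fully, and both groups held cells under 10 CPM and cells over 100 CPM. The sums of 655 counts in Metaphase I and 706 in Pachytene gave a 1.20-fold higher level in Metaphase I (1.07 to 1.33). The log2 ratio was 0.25 in the sums, 0.47 when each cell had equal weight, 0.78 for the medians and 0.05 without the 8 libraries.

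**Figure D4:**
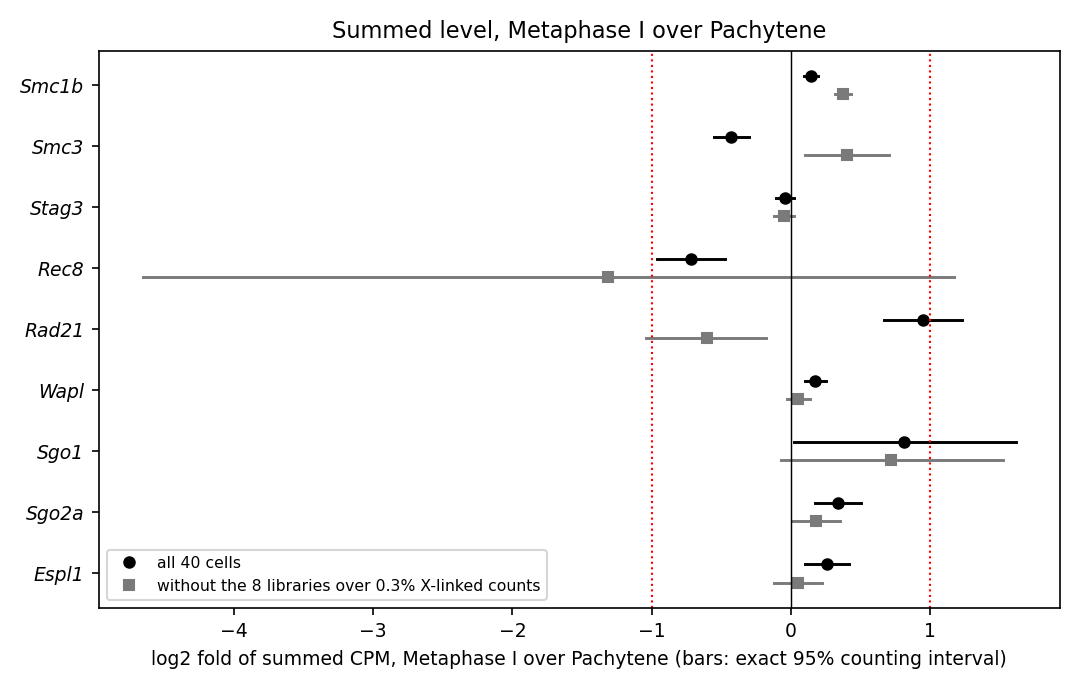
Log2 fold of the summed CPM, Metaphase I over Pachytene, with no pseudocount, for the 9 members with counts, over all 40 cells in black and without the 8 libraries in grey, with bars for the exact 95% counting intervals and red dotted lines at 2-fold. Rad21 and Smc3 lie on different sides of equal level in the black and grey points, and the grey interval of Rec8 runs across both 2-fold lines.

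Levels of some members ran together across cells. The correlations here are Spearman values of log2(CPM + 1) over 40 cells that share library preparation, differ in depth, and include the 8 libraries, and they are descriptions. Rec8 and Smc3 had 0.67 over all cells and 0.36 without the 8 libraries. Smc1b and Espl1 had -0.44 over all cells and -0.48 without the 8, and within the groups they had -0.38 in Metaphase I and -0.56 in Pachytene. Rec8 and Sgo2a had -0.36 over all cells and 0.15 without the 8. Smc3 and Wapl had 0.25 over all cells and 0.56 without the 8.

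For each of the 6 members with at least 1000 summed counts, the 3 genes with the highest Spearman correlation were taken among 4300 genes with as many counts. Espl1 was closest to Nusap1, a spindle microtubule protein (0.82, and 0.83 without the 8 libraries), Reep4 (0.82) and Ttc4 (0.81), where 99% of the 4300 genes lay under 0.74. Sgo2a was closest to Top2a, the topoisomerase that untangles sister chromatids (0.77, and 0.65 without the 8). Zfp800 at 0.68 and Sdad1 at 0.67 followed (0.52 and 0.63 without the 8). Among the genes taken for Wapl were Golga4 and Strbp, both at 0.66 (0.53 and 0.61 without the 8). Smc1b was closest to the nucleosome-binding protein gene Hmgn1 (0.69, and 0.59 without the 8), with Impdh2 and Immp1l both at 0.67. Among those taken for Smc3 were Phyhipl at 0.75 and Pde1a at 0.74, and both were at 0.60 without the 8. Stag3 had the weakest best match, Inpp5k at 0.60, followed by Dazap1 at 0.56 and the GTPase gene Ran at 0.55. Without the 8 libraries these were 0.59, 0.41 and 0.40.

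Genes that load, open and acetylate cohesin had no ratio over 2-fold in the sums over all cells. Of 8 such genes 7 were measured, 0 were over 2-fold higher (8.49% of all genes) or lower (9.81%), and the median log2 ratio was 0.12. The loader subunit Nipbl had 10287 counts in Metaphase I and 13083 in Pachytene, a log2 ratio of 0.02. Its median over cells was 934 CPM in Metaphase I and 712 CPM in Pachytene. The log2 ratio of its partner Mau2 was -0.20, and -0.04 without the 8 libraries. Pds5b, which binds the ring together with Wapl, was 1.70-fold higher in Metaphase I in the sums (log2 ratio 0.74). Metaphase I replicates 13 and 18 held 128 and 90 of its 552 Metaphase I counts. Its median was 26.8 CPM in Metaphase I and 27.9 CPM in Pachytene. The acetyltransferase gene Esco2 had 57 counts in each group, and without the 8 libraries it had 52 in Metaphase I and 21 in Pachytene, with 38 of the 52 in Metaphase I replicate 13. It was then the 1 gene of the 7 over 2-fold higher, against 6.32% of all genes in those cells.

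Of 11 genes that control separase or protect centromeric cohesin, 9 were measured, 2 were over 2-fold higher (8.49% of all genes), 0 were lower (9.81% of all genes) and the median log2 ratio was 0.19. The 2 were PP2A genes, Ppp2r1a (297 counts in Metaphase I and 141 in Pachytene, log2 ratio 1.34) and Ppp2r5a (21 counts in Metaphase I and 4 in Pachytene, log2 ratio 1.05). Replicate 19 held 139 of the 297 Metaphase I counts of Ppp2r1a, and without the 8 libraries its log2 ratio was 0.25. Replicate 13 held 17 of the 21 Metaphase I counts of Ppp2r5a, and without replicates 13 and 19 it had 4 counts in each group and was no longer measured. Pttg1, which encodes securin, the inhibitor of separase, had a log2 ratio of 0.09. Meikin, a meiotic kinetochore regulator that acts with shugoshin, had 0.19, and 0.42 without the 8 libraries. Bub1, the kinase whose mark recruits shugoshin, had -0.06, and 0.32 without the 8 libraries. The 8 libraries held 31.0% of the Bub1 counts in Metaphase I and 50.5% in Pachytene. The histone kinase gene Haspin had a log2 ratio of -0.21, and -0.22 without the 8 libraries. Without Metaphase I replicates 13 and 19 it was -0.06. The Haspin median was 797 CPM in Metaphase I and 827 CPM in Pachytene. Sgo2b and Ppp2r5b had 0 counts in all cells. The deposited Ppp2r5b model spans 2 chromosomes, and whether this bears on its 0 was not tested. With Metaphase I replicates 13 and 19 left out, no measured member and no measured gene of these lists was over 2-fold higher or lower. Of all genes, 3.7% were then over 2-fold higher and 8.92% lower. These 2 replicates held many of the counts behind the calls above, so this omission is no independent check of those calls.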

How the data were processed

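Single-cell libraries from mouse testis (20 Metaphase I, 20 Pachytene) followed a modified STRT-seq method that keeps 3' ends, with 150 bp paired reads, per the labels' protocols. The authors deposited whole-number counts per gene with exon coordinates and exon lengths, per the file headers. UMI-tools, STAR, featureCounts and GRCm38 are named in the submitters' processing notes. No source used here gives their versions, the strand setting, or whether counts are of reads or of molecules. If counts are reads, the intervals are too narrow.

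Members were found by symbol. CPM is counts per 1000000 of a column total. Group sums have exact Poisson intervals, folds of sums exact conditional binomial intervals and shares exact Clopper-Pearson intervals, all at 95%. The log2 ratio adds 1 CPM to each group. A gene was measured at a summed count of 20 or more. A count of 0 was taken to allow up to 3 counts, a fixed limit. The exact Poisson interval of a 0 ends at 3.69 counts. For detection, each cell was thinned to 160000 counts. No test between the groups was made, since each group is 1 sample, and no doublet caller was run on 40 cells. No library was a copy of another: the lowest chi-square per degree of freedom between any 2 libraries was 2.69.

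Named genes are the 10 members, the 22 genes of 3 other cohesin lists, and for each member with at least 1000 summed counts the 3 genes with the highest Spearman correlation, without mitochondrial, ribosomal protein and unnamed genes. Of the genes so taken, 2 are not reported here. Markers are named where they move with a member. The members, lists, motifs and the 0.3% limit on X-linked counts were chosen with earlier results of these data known. Alternatives were equal weight per cell, ratio of medians, TMM (edgeR 4.0.16) and median-of-ratios scaling, other totals, pseudocounts and count minimums, thinning, and omissions of cells. The code (Python 3.11.15, R 4.3.3) was tested on simulated data. RefSeq and gene model coordinates are on GRCm38.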

Additional observations from a re-analysis of the deposited data

How the results depend on the processing

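The median log2 ratio of the members was 0.17 over all cells. It was 0.064 for medians over cells, 0.00 with cells thinned to 160000 counts, 0.052 without the 8 libraries over 0.3% X-linked counts, 0.051 without Metaphase I replicates 13 and 19, and 0.13 to 0.21 over omissions of 1 cell. Members over 2-fold higher numbered 0 to 1 over these omissions, and the 1 was Rad21 without Pachytene replicate 2, Pachytene replicate 13 or Metaphase I replicate 13. Members over 2-fold lower numbered 0 to 1, and the 1 was Rec8 without Metaphase I replicate 3. With thinned cells it was also 1, Rec8 at -1.03. Shares are given as the median over cells, then per kilobase, then without the 8 libraries. The Smc1b share was 100%, 99.1% and 100% in Metaphase I and 100% as a median in Pachytene. For Stag3 they were 88.1%, 92.6% and 87.6% in Metaphase I and 93.0%, 95% and 93.2% in Pachytene, and for Rec8 0%, 52.6% and 2.70% in Metaphase I and 0%, 77.9% and 4.35% in Pachytene. For Sgo2a the first pair was 100% and 90.6% in Metaphase I and 100% and 93.1% in Pachytene. Over single omissions, Metaphase I shares ran from 98.3% to 100% for Smc1b, 85.3% to 87.6% for Stag3, 20.3% to 64.1% for Rec8 and 93.8% to 97.4% for Sgo2a. In Pachytene they ran from 99.97% to 100%, 90.4% to 92.1%, 59.1% to 74.4% and 95.3% to 97.1% for the same genes. The causes were not tested. No paired analysis was possible because the results come from no test and each group is 1 sample. Low counts limit Sgo1, Rec8 outside the 8 libraries, and Rad21l.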
